A study of Macaca mulatta with 16 samples.

Results

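Blood DNA methylation was compared between old rhesus monkeys kept on a 30% calorie-restricted diet (CR-old) and infant monkeys that ate freely (ad libitum, AL-infant), to describe the age difference that was present under restriction. The CR-old group held 3 monkeys, all female, aged 24.9 years (CR-old 1), 23.7 years (CR-old 4) and 25.1 years (CR-old 28). The AL-infant group held 4 monkeys, of which AL-infant 49 and 52 were females of 0.8 years and AL-infant 54 and 57 were males of 0.9 years. Restriction had begun in middle age according to the study's methods, so the CR-old monkeys had eaten freely before it, and no restricted infant was part of the comparison. These 7 libraries were part of a series of 16, each from 1 animal and all from whole blood. The other libraries were from freely fed monkeys of 10.4 to 12.1 years (AL-middle, 5 libraries) and of 21.9 to 29.8 years (AL-old, 4 libraries), and their values are given side by side. Of these adults, AL-middle 40 and AL-old 2 were female and the rest were male. A site was included when it lay on an autosome and had at least 100 reads in all 3 CR-old libraries and in at least 3 AL-infant libraries, which 33374 of 362007 autosomal sites (9.22%) met. Of these, 31000 had 100 reads in all 7 libraries. A mean of an AL-middle or AL-old library uses only those of the stated sites that had 100 reads in it. AL-old 24, with the fewest, had 100 reads at 22152 autosomal sites.

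DNA methylation at CpG dinucleotides is copied at each cell division by maintenance methyltransferases and removed or lost when copying fails. In young blood, CpG-dense promoters are mostly free of methylation and the rest of the genome is mostly methylated, and ageing is known for gains in the first and losses in the second, a change called methylation drift. Whole blood is a mixture of cell types with methylation patterns of their own, and its cell composition was not part of the files, so a change within cells and a change in the share of cell types cannot be told apart.

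Methylation was measured by digital restriction enzyme analysis of methylation (DREAM). In this assay the enzyme SmaI cuts unmethylated CCCGGG sites, XmaI then cuts the methylated ones, and the read ends show which enzyme cut. The methylation level of a site is the percentage of its reads that carry the methylated end. The deposited corrected level multiplies the odds of the raw level by 1 constant per library, set by the authors from spiked DNA standards. The constants did not overlap between the groups: they were 0.772, 0.494 and 0.627 in CR-old 1, 4 and 28 and 0.398 to 0.460 in the infants (difference of means: exact two-sided permutation p = 0.0286). Depth differed too, since CR-old 1 and CR-old 28 held 121004338 and 126804562 reads at SmaI sites and CR-old 4 held 18042448, close to the 15842336 to 18946698 of the infants. A tested site had a median of 2592, 358 and 2682 reads in CR-old 1, 4 and 28 and of 322 to 376 reads in the infants. Because depth and constants moved with the groups, the group comparisons below are given with the corrected and the raw level, and CR-old 4 is named where it stood apart. Values of single sites are corrected levels unless called raw. The part that depth and correction play in any difference was not tested beyond these values.

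Sites that were nearly free of methylation in infants carried more of it in the restricted old monkeys. At the 16008 sites under 5% in AL-infant, the mean corrected level was 1.45%, 1.11% and 1.57% in CR-old 1, 4 and 28, against 0.399%, 0.472%, 0.445% and 0.386% in the infants 49, 52, 54 and 57. Every restricted monkey was above every infant. The group means were 1.38% ± 0.24 (SD, n = 3) and 0.426% ± 0.040 (SD, n = 4), a difference of 0.952 percentage points (exact two-sided permutation p = 0.0286, the smallest that 3 against 4 animals allow). The raw level showed the same direction, with a mean of 2.14% ± 0.29 (SD, n = 3) in CR-old and 0.956% ± 0.031 (SD, n = 4) in AL-infant (exact permutation p = 0.0286). The gain was spread over most of these sites, of which 86.6% had the higher mean in CR-old, but it was small at each, with a median difference of 0.188 points. Counted in reads, 963375 of 53259916 reads at these sites were methylated in CR-old 1 (1.81%), 125932 of 6069604 in CR-old 4 (2.08%) and 1060235 of 45687584 in CR-old 28 (2.32%), whereas the infants lay between 0.781% and 0.866%. CR-old 4, whose depth was like that of the infants, had no methylated read at 44.3% of these sites, against 52.1% to 57.5% in the infants. A site with 0 methylated reads of 100 allows a level of up to 3%, and counting error is all that such a limit covers.

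**Figure D1:**
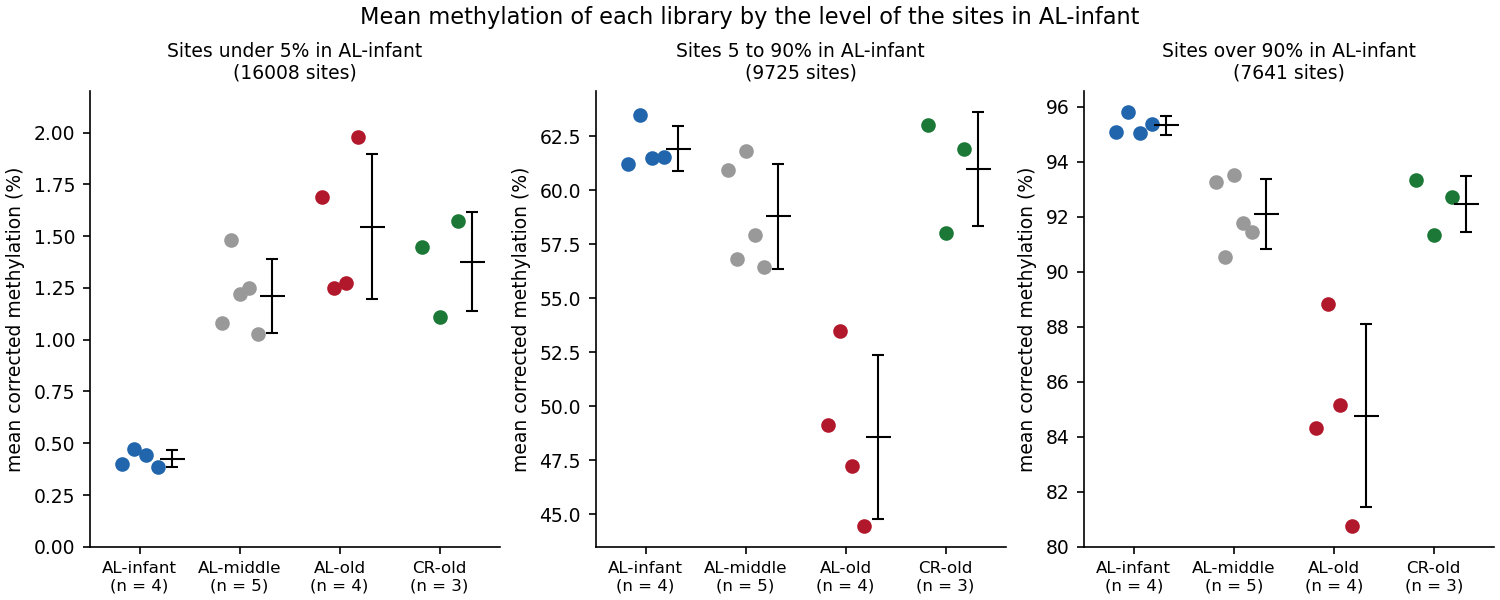
Mean corrected methylation (%) of each library, by group, at sites under 5%, from 5 to 90% and over 90% in AL-infant; each point is 1 library and the bar gives the mean and SD of the group. The y axis starts at 0 in the first panel only. The 3 CR-old libraries lay above the infants in the first panel (1.11 to 1.57% against 0.386 to 0.472%) and below them in the third (91.4 to 93.4% against 95.04 to 95.8%).

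Highly methylated sites moved the other way. At the 7641 sites over 90% in AL-infant, the corrected level was 93.4%, 91.4% and 92.7% in CR-old 1, 4 and 28 and 95.1%, 95.8%, 95.04% and 95.4% in the infants 49, 52, 54 and 57, again without overlap. The means were 92.5% ± 1.02 (SD, n = 3) and 95.3% ± 0.35 (SD, n = 4), so that the restricted animals were lower by 2.86 points (-2.86, exact two-sided permutation p = 0.0286), and the raw difference was -2.78 points (exact permutation p = 0.0286). In contrast to the gain at the low sites, this loss in corrected level was largest in CR-old 4 (-3.98 points from the infant mean) and smallest in CR-old 1 (-1.98 points). That order did not hold without the correction. Counted in reads at these sites, 94.9% were methylated in CR-old 1 and 95.6% in both CR-old 4 and CR-old 28. Of these sites 18.3% had the higher mean in CR-old. The infants' values set the 3 classes, which by itself favours a move away from the infant level. When the classes were set by the AL-middle libraries, which are in neither group, the difference was 0.651 points at 14940 low sites and -1.38 points at 5548 high sites, each with an exact permutation p = 0.0286.

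The 9725 sites between 5 and 90% gave no single answer. Their corrected level was 63.0%, 58.0% and 61.9% in CR-old 1, 4 and 28 and 61.2%, 63.5%, 61.5% and 61.5% in the infants, with overlap between the groups and a difference of -0.93 points (exact two-sided permutation p = 0.657). The raw level differed by -5.15 points without overlap (69.0% ± 1.48, SD, n = 3, against 74.2% ± 0.71, SD, n = 4, exact permutation p = 0.0286). The correction therefore decided whether these sites counted as lower in CR-old.

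A finer division by infant level showed where gain turned into loss. The corrected difference between CR-old and AL-infant was 0.276 points at the 10837 sites of 0 to 0.25%, grew to 2.33 points at 0.5 to 1% and to 4.48 points at 2 to 5%, and reached its highest value, 6.46 points, at the 676 sites of 10 to 20%. All 3 restricted monkeys were higher there, by 7.76, 4.17 and 7.44 points in CR-old 1, 4 and 28. At 35 to 65% the libraries split, with CR-old 1 and 28 higher by 3.43 and 2.51 points and CR-old 4 at -1.88 points. The largest loss was at 80 to 90% (3494 sites), where CR-old 1, 4 and 28 were at -2.73, -7.71 and -4.05 points, a mean of -4.83 (exact two-sided permutation p = 0.0286). The share of sites with the higher mean in CR-old fell along the same axis, from 95.5% at 0.5 to 1% to 53.1% at 35 to 65% and 16.6% at 90 to 95%. Without the correction the gain ended earlier: the raw difference was 1.42 points at 10 to 20% (exact permutation p = 0.257) and -2.04 points at 20 to 35% (exact permutation p = 0.257), whereas below 10% and above 80% it kept the direction of the corrected one.

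**Figure D2:**
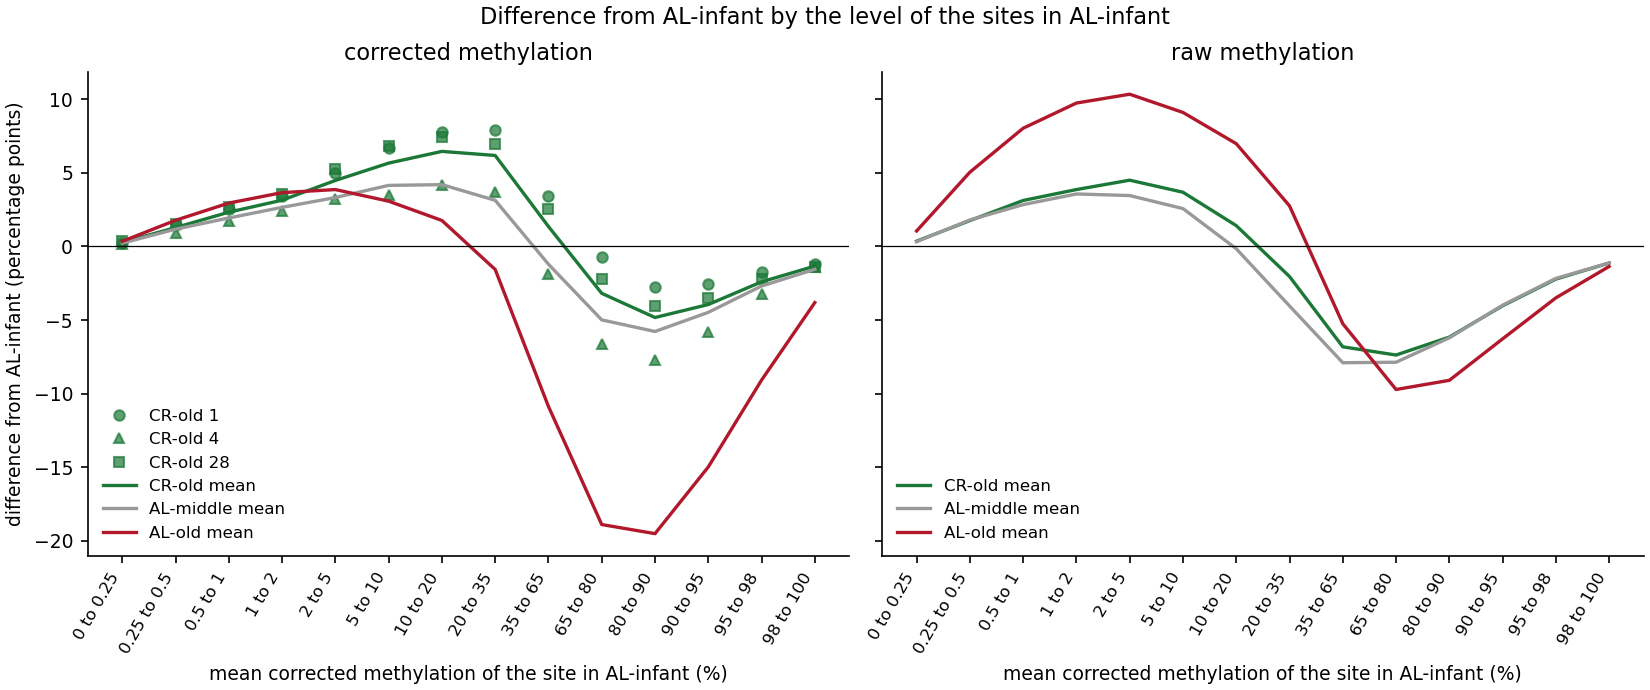
Difference from AL-infant (percentage points) in 14 classes of infant methylation level (%, not to scale), for corrected (left) and raw (right) methylation; lines are means of CR-old, AL-middle and AL-old, and symbols on the left are the 3 CR-old libraries. The CR-old line peaked at 6.46 points at 10 to 20% and was lowest, at -4.83 points, at 80 to 90%; AL-old reached -19.5 points there when corrected and -9.10 points when raw.

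Beside the freely fed adults, the mean corrected level of CR-old at low sites lay within the range of both adult groups. At high sites this mean lay within the range of AL-middle and above that of AL-old. Single animals left these ranges at low sites: CR-old 4 was below every AL-old library and CR-old 28 above every AL-middle library. At sites under 5% in infants AL-middle had a mean of 1.21% ± 0.18 (SD, n = 5), and AL-old of 1.55% ± 0.35 (SD, n = 4). CR-old differed from AL-old by -0.169 points (exact two-sided permutation p = 0.514), and the ranges overlapped (1.11 to 1.57% and 1.25 to 1.98%). At sites over 90% AL-middle had a mean of 92.1% ± 1.27 (SD, n = 5) with a range of 90.5 to 93.5%, while AL-old had 84.8% ± 3.32 (SD, n = 4) and reached 88.8% at most. There CR-old was 7.70 points above AL-old with no overlap (exact permutation p = 0.0571), and the raw difference was 1.48 points (exact permutation p = 0.429). At intermediate sites CR-old stood 12.4 points above AL-old (exact permutation p = 0.0286). The raw levels differed far less at these sites (0.136 points, exact permutation p = 0.971), and at the low sites the raw level of CR-old was below that of AL-old by 1.95 points (-1.95, exact permutation p = 0.0286). The constants of AL-old (0.250 to 0.424) lay below all those of CR-old, and their part in the corrected difference was not tested beyond the raw values. CR-old was all female, whereas AL-old 2 was the only female of AL-old. AL-old 7 and AL-old 33 were also older than any CR-old animal, at 29.8 and 29.3 years. The part of sex and age in these differences was not tested.

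As a single value per animal, the mean absolute distance of a library from the infant profile was taken over the 31000 sites read in all 7 libraries. It was 3.41, 4.17 and 3.66 points in CR-old 1, 4 and 28 and 1.91, 2.02, 1.87 and 1.91 points in the infants, each infant taken against the mean of the other 3 and every other library against the 4 such means in turn. The groups did not overlap (3.74 ± 0.38, SD, n = 3, against 1.93 ± 0.07, SD, n = 4, exact two-sided permutation p = 0.0286). AL-middle had a distance of 3.71 ± 0.68 points (SD, n = 5), while that of AL-old was 8.01 ± 2.00 points (SD, n = 4). With raw levels the distance was 3.87 points in CR-old and 1.57 points in AL-infant (exact permutation p = 0.0286). No raw distance is given for AL-middle and AL-old, so their contrast with CR-old rests on corrected levels alone. The raw difference from AL-infant at high sites was -2.78 points in CR-old and -4.26 points in AL-old. At intermediate sites it was -5.15 points in CR-old and -5.285 points in AL-old.

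Larger departures were found at few sites. Among sites low in infants, 1.88%, 1.15% and 1.89% were over 10% methylated in CR-old 1, 4 and 28, against 0.0189% to 0.0319% in the infants (exact two-sided permutation p = 0.0286), while AL-middle had 1.18% ± 0.53 (SD, n = 5) and AL-old had 2.58% ± 1.86 (SD, n = 4). Among sites high in infants, the share under 80% was 1.64%, 7.70% and 2.54% in CR-old 1, 4 and 28 and 0.0133% to 0.0543% in the infants (exact permutation p = 0.0286), beside an AL-middle share of 4.53% ± 3.22 (SD, n = 5) and an AL-old share of 29.0% ± 10.5 (SD, n = 4). CR-old 4 had the highest share of the restricted animals by far, and without it the difference between CR-old and AL-infant fell from 3.92 to 2.09 points. The sizes of both shares depended on the correction: with raw levels the share over 10% was 4.58% in CR-old and 0.871% in AL-infant, and the share under 80% was 0.467% in CR-old, with no such site in any infant (exact permutation p = 0.0286 for each). No raw shares are given for AL-middle and AL-old, whose shares above are corrected only. Classes set by AL-middle reduced both: the share over 10% was then 0.279% in CR-old and 0.109% in AL-infant (exact permutation p = 0.0286), and the share under 80% was 0.925% and 0.565% (exact permutation p = 0.686).

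A choice of drifting sites that used neither group was made from the difference in corrected level between AL-old and AL-middle. The constants of AL-old (0.250 to 0.424) all lay below those of AL-middle (0.469 to 0.728), which lowers corrected levels in AL-old. The raw differences below were taken at the same sites, so they do not check the choice, and the part of the constants in it was not tested. The 5092 sites at least 10 points lower in AL-old than in AL-middle were lower in CR-old than in infants, at 77.6%, 71.4% and 76.1% in CR-old 1, 4 and 28 against 78.1%, 80.5%, 78.3% and 78.8% in the infants 49, 52, 54 and 57 (difference -3.89 points, exact two-sided permutation p = 0.0286). CR-old 1 lay just under the lowest infant, and the difference was -2.05 points without CR-old 4. AL-middle was at 74.7% and AL-old at 57.4%. The raw difference between CR-old and AL-infant was -6.07 points (exact permutation p = 0.0286). The 151 sites at least 10 points higher in AL-old did not differ detectably (45.3% ± 2.13, SD, n = 3, against 45.7% ± 2.198, SD, n = 4, exact permutation p = 0.8), and their groups overlapped, while the raw difference was -5.33 points (exact permutation p = 0.0857). With a threshold of 5 points, 564 sites were higher in AL-old, and these were higher in CR-old than in infants by 2.40 points (exact permutation p = 0.0286), whereas the difference at the lower sites was then -2.82 points and no longer passed (exact permutation p = 0.0571).

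Site by site, a quasi-binomial logistic model of the reads with limma moderation (Benjamini-Hochberg adjusted p under 0.05 over 33374 sites) called 7276 sites higher in CR-old, which is 21.8% of the sites tested, and 2747 lower (8.23%) with the correction. Without it the balance turned, with 5594 higher (16.8%) and 8215 lower (24.6%). The 5594 sites higher and the 2747 lower in both fits (16.8% and 8.23%) did not rest on the correction and are described here as gained and lost. Of the gained sites 4494 (80.3%), and of the lost sites 2395 (87.2%), had no overlap of the groups in either level, where 15.2% and 12.7% of all tested sites had none in these directions. The calls came from the same libraries on both scales, which by itself favours no overlap. When each animal was left out in turn, 3390 of 5291 gained sites (64.1%) and 1110 of 2556 lost sites (43.4%) that were tested in all 7 fits were called in each of them, and the number lost was lowest, at 1630, without AL-infant 52. Fits that left out a CR-old animal could be more lenient, so being called in them is a weak check. With CR-old 4 as the only restricted animal, 41.4% of the gained and 58.5% of the lost sites were called again. With sex as a covariate, 69.2% and 47.7% were, and among females only 67.1% and 39.1%.

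Gained and lost sites came from opposite ends of the infant range. This division was partly fixed in advance. Sites near the floor have little room to fall and sites near the ceiling little room to rise. The infant values that set the classes also entered the calls. Of the gained sites 5159 were under 5% in infants (32.2% of that class), 429 were intermediate (4.41%) and 6 were over 90% (0.0785%). Lost sites numbered 14, 1144 and 1589 in the same classes (0.0875%, 11.8% and 20.8%). The share called gained was highest, at 65.1%, at sites of 0.5 to 1%, and the share called lost was highest, at 22.1%, at 90 to 95%. In percentage points gains were small: the median gain was 1.79 points, from a median infant level of 0.333% to 2.17% in CR-old. Losses were larger on this scale, with a median of -10.1 points, from 91.7% to 81.0%. The calls were made on log odds, where the same number of points counts for more near the floor, so this order holds for points only. At the same sites the corrected medians were 1.76% and 2.65% (gained) and 81.8% and 64.2% (lost) in AL-middle and AL-old. Raw levels stood otherwise. The raw mean of a library over the lost sites was 80.04% to 82.2% in CR-old and 75.1% to 84.85% in AL-old, with overlap. Over the gained sites it was 8.21% to 9.52% in CR-old and 11.7% to 14.3% in AL-old. Gains of 20 points or more were found at 209 called sites of the intermediate and 3 of the low class, and losses of that size at 139 of the intermediate and 30 of the high class.

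The restricted animals were spread more widely than the infants at low sites, and this was not tested. Their mean level there was also higher (1.38% against 0.426%), and near the floor the SD is held small. The infants had no methylated read at 52.1% to 57.5% of these sites. The CR-old libraries also differed from each other in depth and constant, so the SDs of the 2 groups are not alike in basis. The median SD between animals was 0.186 points in CR-old and 0.0789 points in AL-infant at low sites, 4.65 and 4.13 points at intermediate sites, and 1.57 and 1.43 points at high sites. Across the 31000 sites, Pearson's r between 2 libraries was 0.988 to 0.994 in CR-old and 0.993 to 0.994 in AL-infant, as a description over sites that share libraries.

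The 8 largest gains began from mean infant levels between 6.12% and 37.6% and ended between 50.5% and 85.7% in CR-old. The highest was at site SmaI_rheMac2_20272 (chromosome 1, position 113278592 of rheMac2), with 86.2%, 50.8% and 86.2% in CR-old 1, 4 and 28 and 22.7%, 45.0%, 7.9% and 21.8% in the infants 49, 52, 54 and 57, a gain of 50.0 points (limma-moderated adjusted p = 2.89e-05). Its infants were far apart and CR-old 4 was nearest to them, and with CR-old 4 alone it was not called (limma-moderated adjusted p = 0.112). Site SmaI_rheMac2_128640 (chromosome 6, position 169075287) was the tightest of the large gains, at 50.3%, 52.1% and 49.05% in CR-old and 4.4%, 10.2%, 7.7% and 2.2% in the infants (gain 44.4 points, limma-moderated adjusted p = 2.58e-07). AL-old animals with 100 reads had 59.6%, 46.2% and 41.5% there, and AL-middle 17 had 32.9%. Site SmaI_rheMac2_186066 (chromosome 9, position 124143164) had at least 606 reads in each of the 7 libraries and read 67.9%, 58.0% and 66.4% in CR-old against 10.7%, 25.1%, 22.2% and 26.4% in the infants, a gain of 42.97 points (limma-moderated adjusted p = 6.81e-06). All 9 freely fed adults were above every infant at this site, from 45.4% to 68.9%.

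At another site the corrected level of the restricted animals was above that of the freely fed adults as well. Site SmaI_rheMac2_275963 (chromosome 15, position 5232899) read 55.2%, 46.8% and 71.4% in CR-old and 10.3%, 5.4%, 10.2% and 15.6% in the infants (gain 47.4 points, limma-moderated adjusted p = 8.62e-07), while AL-middle was at 14.6% to 30.5% and AL-old at 12.9% to 38.0%. The raw level did not separate them, since AL-old 33 had 62.7% and CR-old 1 had 61.5%. The pattern was the same in kind at site SmaI_rheMac2_238721 (chromosome 12, position 106235031), with 56.3%, 43.2% and 82.8% in CR-old, 10.2% to 18.8% in the infants and 20.4% to 33.3% in AL-old, though AL-middle 40 reached 53.7% and the raw level of AL-old 7 (60.99%) was above that of CR-old 4 (60.7%). The other 3 of the 8 largest gains, at sites SmaI_rheMac2_15240, SmaI_rheMac2_204055 and SmaI_rheMac2_60452, were of 48.1, 44.6 and 44.0 points. The comparison of CR-old with freely fed adults at single sites was not tested here.

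**Figure D3:**
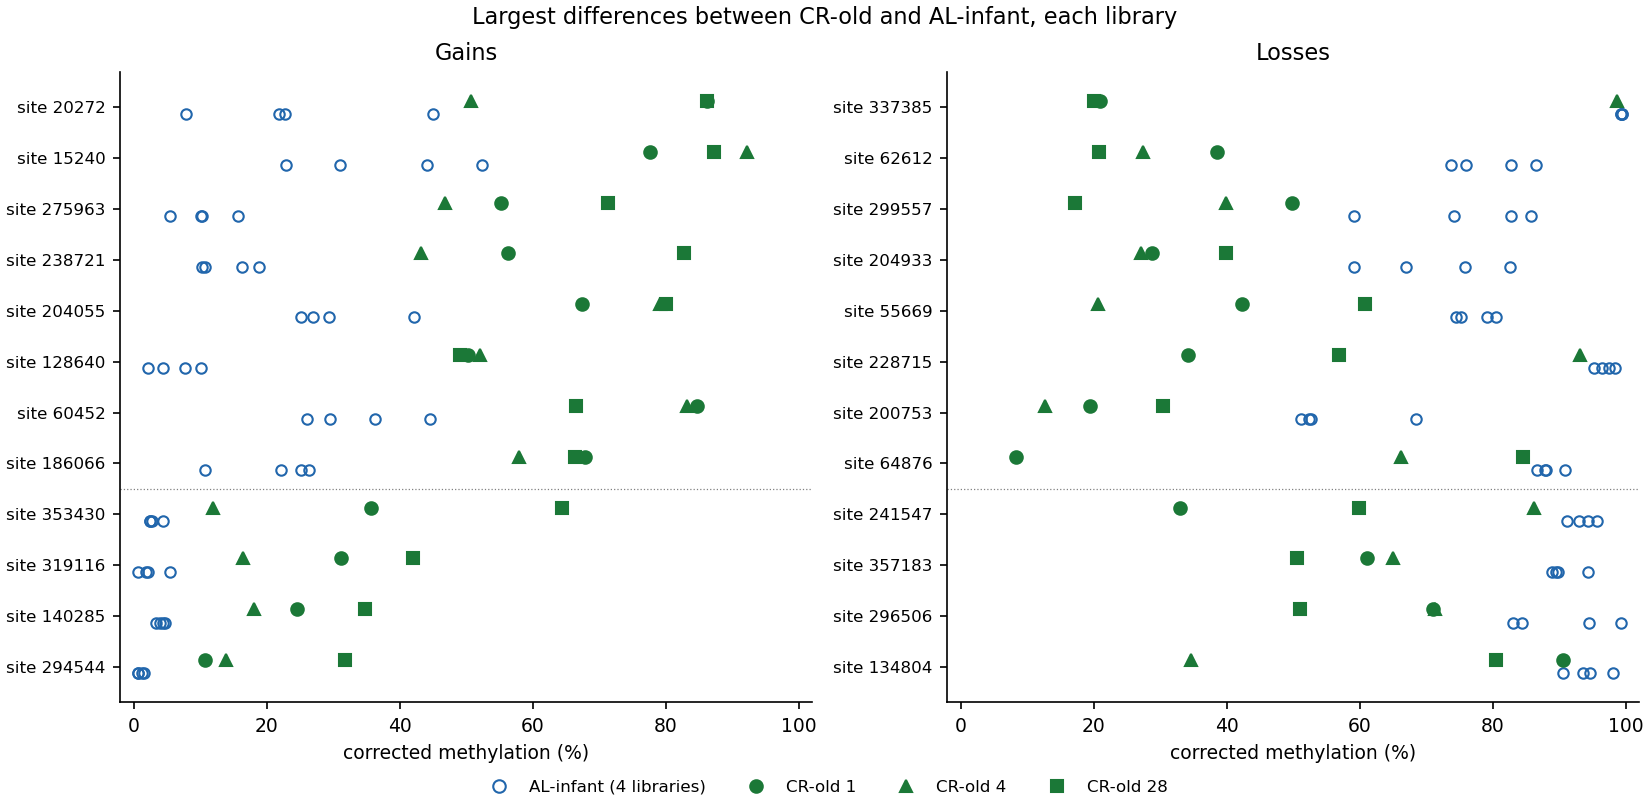
Corrected methylation (%) of each library at the sites with the largest gains (left) and losses (right) in CR-old; open circles are the 4 AL-infant libraries and filled symbols the 3 CR-old libraries, and below the dotted line are further sites under 5% or over 90% in infants. At the sites SmaI_rheMac2_337385, SmaI_rheMac2_228715 and SmaI_rheMac2_241547 the symbol of CR-old 4 (98.6, 93.1 and 86.2%) lay below the infants but near them, and the other CR-old symbols lay far below.

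Among sites that were under 5% in infants, the gains were up to 34.3 points. Site SmaI_rheMac2_353430 (chromosome 20, position 29186677) read 35.7%, 11.9% and 64.4% in CR-old 1, 4 and 28 and 2.5%, 4.4%, 2.4% and 2.7% in the infants (limma-moderated adjusted p = 5.86e-06). Site SmaI_rheMac2_140285 (chromosome 7, position 60155308) was more even, at 24.6%, 18.0% and 34.8% against 4.0%, 4.7%, 4.5% and 3.3% (gain 21.7 points, limma-moderated adjusted p = 1.61e-06). CR-old 28 was the highest at both, and the choice of named sites required every restricted animal to be above every infant. Sites SmaI_rheMac2_319116 and SmaI_rheMac2_294544 gained 27.4 and 17.7 points.

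The largest losses included some in which all restricted animals moved and some in which CR-old 4 was below the infants but nearer to them than to the other restricted animals. In the first kind, site SmaI_rheMac2_62612 (chromosome 3, position 48156210) read 38.5%, 27.4% and 20.9% in CR-old 1, 4 and 28 and 76.0%, 82.7%, 86.5% and 73.7% in the infants, a loss of -50.8 points (limma-moderated adjusted p = 2.28e-06). Freely fed adults had values from 27.2% to 64.1% there, also below every infant. Site SmaI_rheMac2_204933 (chromosome 10, position 84578671), with at least 951 reads in each of the 7 libraries, read 28.8%, 27.2% and 39.9% in CR-old and 59.2%, 75.9%, 66.9% and 82.5% in the infants (-39.2 points, limma-moderated adjusted p = 3.03e-05). AL-old lay at 27.3%, 29.8%, 19.4% and 27.7% and AL-middle at 34.97% to 57.2%, so that both were below the infants as well.

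At site SmaI_rheMac2_299557 the AL-middle animals lay within the range of the infants while both old groups were below it. This site (chromosome 16, position 43695002) read 49.8%, 39.9% and 17.2% in CR-old and 17.2%, 29.8% and 17.7% in the AL-old animals with 100 reads, against 59.8% to 80.02% in AL-middle and 74.1%, 85.8%, 59.1% and 82.8% in the infants (-39.8 points, limma-moderated adjusted p = 0.000368). It was not called by the plain model that did not scale down deep libraries (limma-moderated adjusted p = 0.0627). Site SmaI_rheMac2_55669 (chromosome 3, position 4246902) read 42.2%, 20.7% and 60.8% in CR-old against 74.5% to 80.6% in the infants, 37.5% to 60.8% in AL-middle and 11.2% to 34.3% in AL-old, so that CR-old 1 and 28 were above all 4 AL-old animals. In raw levels CR-old 1 (48.6%) was below AL-old 7 (62.1%). Site SmaI_rheMac2_200753 (chromosome 10, position 67234954) read 19.4%, 12.7% and 30.5% in CR-old and 52.7%, 68.5%, 52.4% and 51.1% in the infants, and 25.2% to 32.1% in AL-old. At site SmaI_rheMac2_357183 (chromosome 20, position 67915449), which was over 90% in infants on average, CR-old had 61.1%, 65.03% and 50.6% against 88.8%, 89.5%, 94.3% and 89.8% (-31.7 points, limma-moderated adjusted p = 6.67e-06).

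In the second kind CR-old 4 parted from the other restricted animals. The largest loss of all, at site SmaI_rheMac2_337385 (chromosome 19, position 36238404), was -52.8 points, but CR-old 1 and 28 read 21.0% and 20.1% while CR-old 4 read 98.6% beside infants of 99.2% to 99.4%. The reads at the site were few in all of these, at 118, 214 and 109 in CR-old 1, 4 and 28. Of the other libraries, AL-old 7, with 56837858 reads in all, had 64.95% and the rest with 100 reads at the site had 95.3% or more. Sites SmaI_rheMac2_228715 (chromosome 12, position 17115788) and SmaI_rheMac2_241547 (chromosome 13, position 20465875) were alike, with CR-old 1 and 28 at 34.2% and 56.8% and at 33.1% and 59.9%, CR-old 4 at 93.1% and 86.2%, and the infants at 95.2% to 98.3% and 91.2% to 95.7%. None of the 3 was called with CR-old 4 as the only restricted animal (limma-moderated adjusted p = 0.251, 0.272 and 0.105). In AL-middle, the larger libraries 17 and 43 read 61.8% and 54.7% at SmaI_rheMac2_228715 and 49.8% and 64.9% at SmaI_rheMac2_241547, and AL-old 7 read 41.9% at the first but 84.1% at the other.

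**Figure D4:**
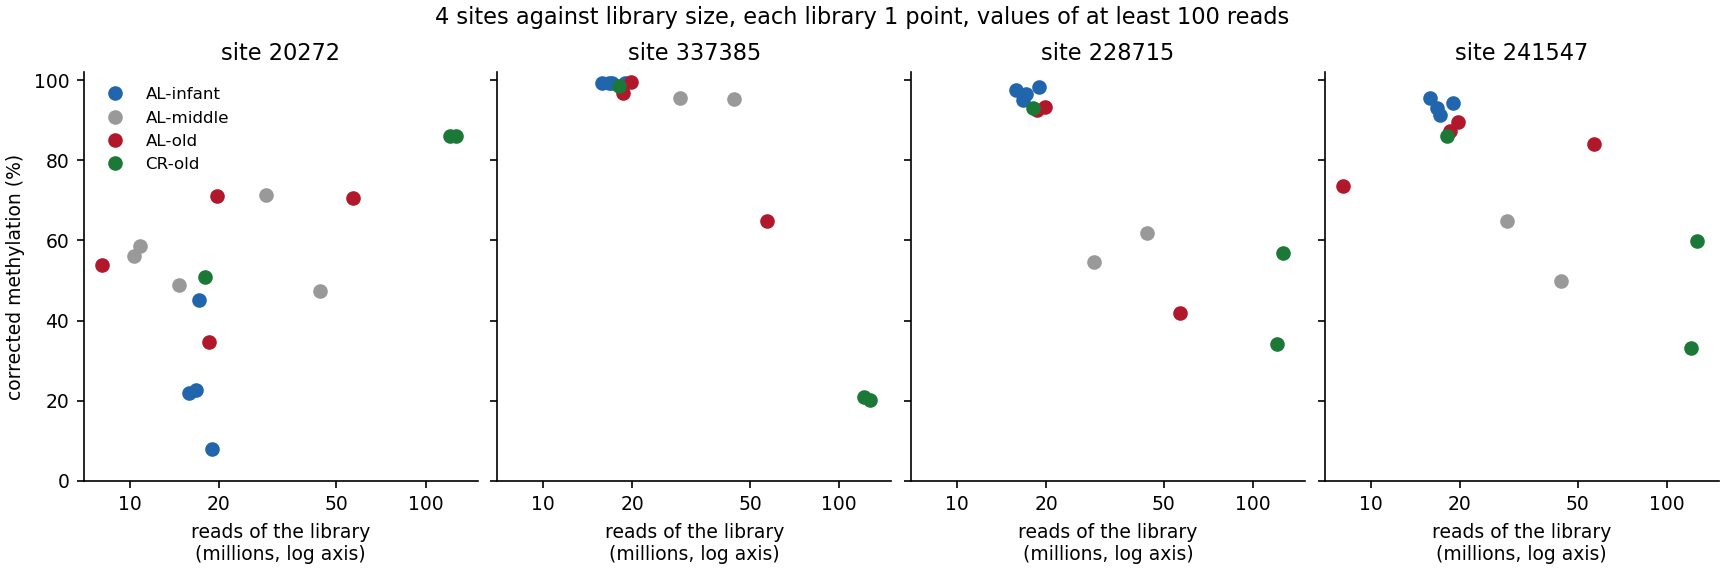
Corrected methylation (%) at 4 sites against the reads of each library (log axis), each point 1 library with at least 100 reads at the site. These are the named sites that were not called with CR-old 4 alone; at SmaI_rheMac2_337385, SmaI_rheMac2_228715 and SmaI_rheMac2_241547 the large CR-old libraries read 20.1 to 59.9% and CR-old 4 read 86.2 to 98.6%.

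Such sites were rare. CR-old 1 and 28 were both at least 20 points below CR-old 4, with CR-old 4 within 5 points of the infant mean, at 17 of the 2747 lost sites (0.619%) and at 18 of all 33374 sites (0.0539%). Site SmaI_rheMac2_241547 is outside this count, since CR-old 4 (86.2%) was further from the infant mean (93.5%). At those 17 sites the means were 48.5% and 49.6% in CR-old 1 and 28, 94.1% in CR-old 4, 94.3% in AL-infant, 58.7% in AL-old 7 and 89.5% in AL-old 2, 24 and 33. AL-middle did not divide by depth in this way, with 75.9% in the larger libraries 17 and 43 and 73.8% in 40, 42 and 46. The mirror pattern, with both large libraries at least 20 points above, was found at 11 of the 5594 gained sites (0.197%) and at 24 of all sites (0.0719%). At 2 more of the named losses a single animal lay far below the other restricted animals, though these were also under every infant, as the choice of sites required. Site SmaI_rheMac2_64876 read 8.3% in CR-old 1 but 66.2% and 84.6% in CR-old 4 and 28, against 86.6% to 90.8% in the infants. Site SmaI_rheMac2_134804 read 34.6% in CR-old 4 but 90.5% and 80.5% in the others, against 90.6% to 98.1%. Both were called when that animal was left out (limma-moderated adjusted p = 0.0122 and 0.00139), a weak check since such fits could be more lenient. Neither was called by the plain model or with a coverage minimum of 20 reads, and the limma fit of log odds did not call SmaI_rheMac2_64876. The last of the named sites, SmaI_rheMac2_296506, lost 25.8 points (-25.8).

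Neighbouring sites often differed in the same direction. Of 3311 pairs of adjacent tested sites at most 100 bp apart, 633 were called at both sites and 0 of these in opposite directions, and across pairs the 2 differences had a Spearman r of 0.72. The r was 0.65 above 100 and up to 300 bp (11567 pairs), 0.49 up to 1000 bp (3139 pairs) and 0.16 up to 5000 bp (1876 pairs), as a description in which pairs share libraries and sometimes reads of the same fragments. Called low sites were nearly all gained and called high sites nearly all lost, so neighbours of like infant level tend to share a direction. Pairs were not compared within a class, and a joint change beyond a shared level was not tested. In low sites the difference between CR-old and AL-infant was 1.01 points with another SmaI site within 200 bp (11361 sites) and 0.820 points without one (4647 sites), each with an exact two-sided permutation p = 0.0286. The share of low sites called gained was 27.7% without a neighbour and 34.2%, 33.2% and 35.4% with 1, 2 and 3 or more. For high sites the difference was -2.90 points with (4006 sites) and -2.81 points without a neighbour (3635 sites), both with an exact permutation p = 0.0286. The raw differences were 1.27 and 0.948 points at low and -2.82 and -2.74 points at high sites, in the same order (exact permutation p = 0.0286 for each). The difference between sites with and without a neighbour was not tested.

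Runs of at least 3 gained sites without overlap of the groups, all within 2000 bp, numbered 423 and held 1561 sites, whereas 26 runs of lost sites held 80. These counts are not on an equal basis. Sites without overlap numbered 4494 among the gained and 2395 among the lost. Another SmaI site lay within 200 bp of 11361 of 16008 low sites but of 4006 of 7641 high sites. Whether gains were more clustered than losses was not tested. The longest was a gain of 8 sites, among 10 tested, between positions 44104113 and 44105515 of chromosome 14. Its sites rose by 2.16 points on average, each from at most 1.9% in every infant, and the highest restricted value was 5.2%. A run of 7 sites, all of those tested, on chromosome 3 (57557797 to 57559333) rose by 5.70 points on average. Its largest member, SmaI_rheMac2_64901, read 13.0%, 13.0% and 16.7% in CR-old and 1.7%, 2.9%, 1.8% and 1.3% in the infants (limma-moderated adjusted p = 9.12e-07), and AL-old had 28.2%, 13.3% and 13.1%. Another run of 7, on chromosome 14 (26210578 to 26211665), joined 6 low sites that rose by 0.345 to 4.78 points with 1 site that read 61.5%, 47.8% and 41.7% in CR-old and 13.7% to 26.4% in the infants.

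The longest losses were of 4 sites, on chromosome 19 (3903300 to 3904557), by -14.9 points on average, and on chromosome 1 (32593452 to 32594440), by -10.9 points. Within both, sites of quite different infant level fell together: on chromosome 19, SmaI_rheMac2_330056 read 81.6%, 78.1% and 82.5% in CR-old and 88.2% to 93.4% in the infants, and SmaI_rheMac2_330061 read 7.2%, 3.1% and 10.1% against 20.4%, 37.7%, 19.9% and 20.2%. The deepest was the run of 3 sites within 177 bp that starts with SmaI_rheMac2_62612, with a mean of -43.5 points. All 3 of its sites fell in each restricted animal, and SmaI_rheMac2_62614 read 25.7%, 32.6% and 17.3% in CR-old and 59.1%, 70.4%, 81.1% and 64.4% in the infants.

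**Figure D5:**
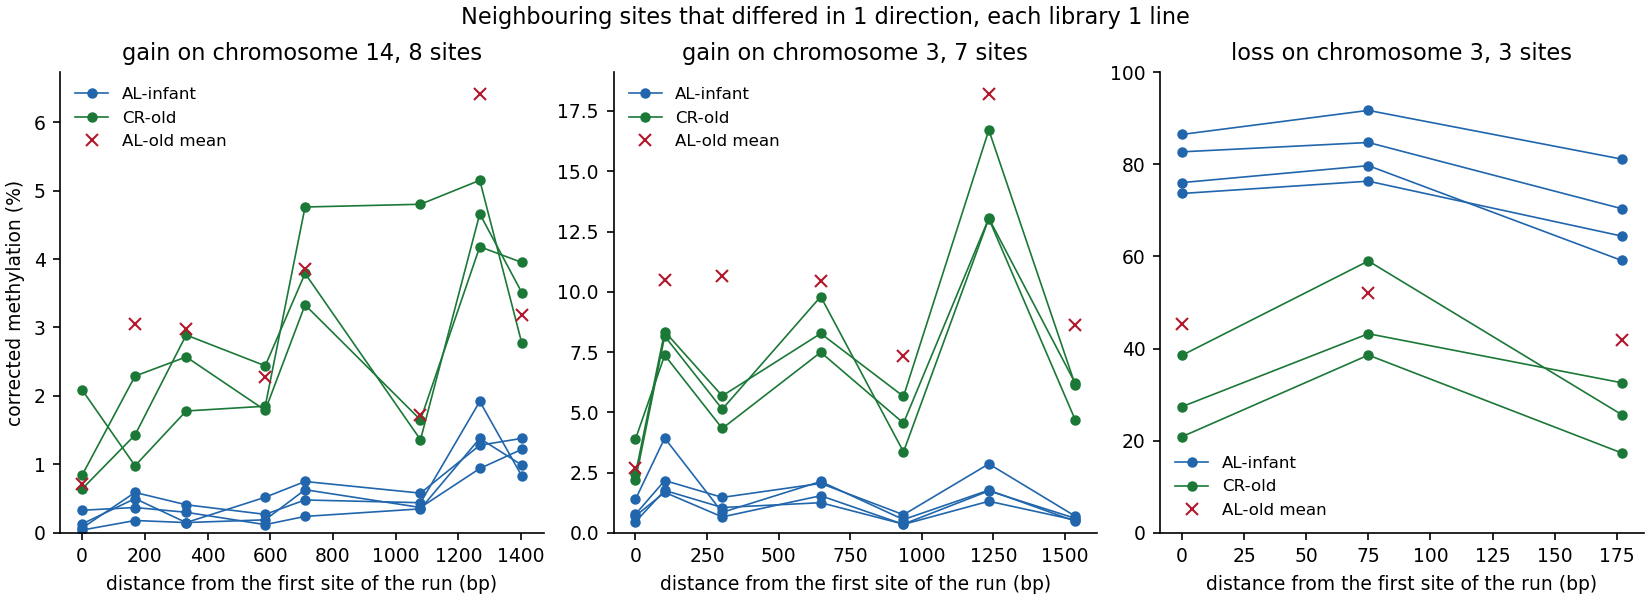
Corrected methylation (%) along 3 runs of neighbouring sites against the distance (bp) from the first site of the run, each line 1 library of AL-infant or CR-old, with crosses for the mean of AL-old libraries with at least 100 reads; the y axes differ in scale. CR-old lay above the infants at every site of the gains on chromosomes 14 and 3 and below them at the 3 sites of the loss on chromosome 3. The choice of sites without overlap of the groups required this.

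Gains and losses occurred on all 20 autosomes. The share of tested sites that gained ranged from 10.1% on chromosome 20 and 10.9% on chromosome 19 to 24.8% on chromosome 17 and 26.6% on chromosome 5, beside the 16.8% over all, and the share that lost ranged from 5.28% on chromosome 19 to 10.2% on chromosomes 13 and 15, beside 8.23%. No test of the differences between chromosomes was made.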

How the data were processed

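The authors digested whole-blood DNA with SmaI and XmaI, mapped reads to rheMac2 (study's methods; the submitters' processing notes name Bowtie2, SAMtools and, against the site names, mm10) and deposited, per site and library, counts of methylated, unmethylated and total reads and 2 percent columns. The deposited raw percent is 100 × (methylated + 0.5) / (total + 1), which lifts levels near 0 in shallow libraries, and the authors' adjusted percent multiplies its odds by 1 constant per library; both formulas were checked against every site.

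Levels under 100 reads were left out. Sites were tested with a quasi-binomial logistic model (reads scaled by an intra-library correlation of 0.0113, offset from the correction constant, limma 3.58.1 variance moderation with a median prior of 23.9 degrees of freedom, R 4.3.3), fitted with and without the offset and tested on simulated data. The adjusted p-values lean on this spread shared between sites. Group values per library were compared by exact permutation (Python 3.11.15, 35 splits). Each library is 1 animal. Site lists, thresholds and members were chosen with earlier results of these data known. Named sites are those with 100 reads in all 7 libraries, called in both fits and without overlap of the groups: the 8 largest gains, the 8 largest losses, 4 further gains from under 5% and 4 further losses from over 90%, 1 per 1000 bp; runs of at least 3 within 2000 bp were described, longest first, and the deepest of the losses. Neighbour results were taken within the low and high classes, a refinement of the plan. No genome or annotation of rheMac2 was used here, so no genes or sequences are given. Alternatives were coverage minimums of 20 and 200 reads, other models, other thresholds and classes, sex, and each library left out.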

Additional observations from a re-analysis of the deposited data

Results flagged for a closer look

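In 60 groups of 4 or 5 libraries, the highest or lowest library was set against the rest by Dixon's criterion, which chance alone meets in about 1 of 20 groups, and 3 groups met it. AL-infant 52 stood apart from the other infants in the mean level of intermediate sites, at 63.5% against 61.2% to 61.5%. The same infant stood apart at site SmaI_rheMac2_200753, with 68.5% against 51.1% to 52.7%, and at site SmaI_rheMac2_353430, with 4.43% against 2.4% to 2.7%. In all 3, AL-infant 52 was the highest infant. The constant of AL-infant 52 (0.460) was the highest of the infants, and its part in these values was not tested.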

How the results depend on the processing

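No paired analysis was possible because the groups share no replicate numbers. Females only (3 against 2, smallest exact permutation p = 0.1) gave 0.974 points at low sites, -3.19 at high sites, 1.73 in distance, 1.72 and 4.56 in the shares over 10% and under 80%, -4.26 at sites lower in AL-old, and 1.03, 0.849, -3.17 and -3.21 at low and high sites with and without a neighbour, all past no threshold; 1156 sites were then lost. Raw levels gave -5.15 (intermediate), and, against AL-old, -1.95 (low) and 0.136 (intermediate). At 20 reads the intermediate difference was 0.294 and that from AL-old 13.5 (exact permutation p = 0.0571), which was 12.3 at sites read in all 16 libraries, an alternative added after seeing the data. Sites higher in AL-old gave 1.25 at 200 reads, 1.08 with all 16 libraries and 2.40 with a 5-point threshold (exact permutation p = 0.0286; lower sites -2.82, exact permutation p = 0.0571). Classes by AL-middle, also added afterwards for the shares, gave 0.360 for the share under 80%.

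Lost sites numbered 8215 without the correction and 1459 with sex as a covariate. CR-old 4 alone gave 2885 gained (2577 in both fits), limma without the correction 4345 gained and 6946 lost, and a 5-point minimum 1691 gained (1033 in both). Leaving out 1 library left every difference that passed in its direction but past no threshold, since 3 against 3 and 2 against 4 cannot pass: 0.853 to 1.09 (low), -3.33 to -2.31 (high), -2.06 to 0.556 (intermediate), -0.269 to -0.0255, 11.1 to 14.1 and 6.37 to 9.06 (low, intermediate and high against AL-old), 1.61 to 2.00 (distance), 1.496 to 1.86 and 2.09, without CR-old 4, to 5.22 (shares), -5.18 to -2.05, the latter without CR-old 4, and -1.12 to 0.587 (lower and higher in AL-old), 0.888 to 1.17 and 0.766 to 0.890 (low) and -3.24 to -2.45 and -3.43 to -2.17 (high) with and without a neighbour. Gained sites numbered 5710 to 9583 (4386 to 6173 in both fits) and lost sites 1630, without AL-infant 52, to 3436. No named site changed direction in any alternative, and 24 of 24 were called in each leave-one-out fit. These sites had been chosen for large differences without overlap of the groups, which favours such a result. Fits that left out a CR-old animal could also be more lenient. At SmaI_rheMac2_20272 the limma-moderated adjusted p was 2.89e-05 with all animals and 1.11e-15 without CR-old 4. Being called in such fits is therefore a weak check. The deep CR-old libraries, the all-female CR-old group and the correction limit each statement.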
